A study of Mus musculus with 6 samples.

Results

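Glutathione transferases and the antioxidant enzymes around them were compared between the livers of B6.C3H-6T mice, a congenic strain that carries C3H DNA on chromosome 6 in a C57BL/6J background and has low serum IGF-1, and those of C57BL/6J mice. The members were 47 genes named by enzyme family, and 43 of them had at least 1 probe set that the platform annotation pairs with that gene alone, out of 18193 genes measured that way. Ggt1, Prdx5 and Prdx6 had no such probe set, and the 5 probe sets of Prdx1 are shared with another gene, so these 4 are not analysed here. Each gene was represented by its brightest probe set over the 6 arrays, and 38 other probe sets of 23 members were compared with it.

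The arrays held liver RNA of 3 B6.C3H-6T and 3 C57BL/6J mice, all of them females of 8 weeks fed chow, with 1 mouse per array and no agent named in the labels. The limits of the C3H segment are not given in the labels. Mgst1 and Gstk1 are the members on chromosome 6, and whether C3H alleles lie under their probes was not tested. The median log2 value of an array ran from 6.07 to 6.11, and every B6.C3H-6T array had a higher median than every C57BL/6J array. The main fit kept this offset between the strains, and the alternative with arrays centred on their median removed it. Signals of the hepatocyte markers, such as Alb, averaged 13.57 to 13.61 per array in B6.C3H-6T and 13.45 to 13.52 in C57BL/6J over 8 genes, of which Tat (0.42 ± 0.09) and Cps1 (0.26 ± 0.07) had an unadjusted p under 0.05. The other 6 differed by -0.04 to 0.08. Of the 8, 7 (87.5%) were higher in B6.C3H-6T, against 56.1% of all genes, and 4 when arrays were centred on their median. The strains did not overlap at 3 of the 8 (37.5%), against 17.8% of all genes. Those of 8 Kupffer cell and macrophage markers averaged 8.93 to 9.17 in B6.C3H-6T and 9.28 to 9.56 in C57BL/6J, with every marker lower in B6.C3H-6T by its mean and the lowest single value at 6.98, that of Marco. The other 8 marker lists (endothelial, stellate, bile duct, lymphocyte, erythroid, neutrophil, adipocyte and kidney) each had 0 or 1 gene at an unadjusted p under 0.05, against 12.2% of all genes. Of 5 neutrophil markers, Ngp, Elane and Mpo (60%) were higher in B6.C3H-6T without overlap, against 17.8% of all genes. S100a8 and S100a9 were lower by their means. The neutrophil count was 3 without moderated variances or with the mean of all probe sets of a gene. In whole liver, fewer cells of a type and less RNA per cell cannot be told apart.

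Glutathione is a tripeptide made in the cytosol by glutamate-cysteine ligase and glutathione synthetase, and liver is its main producer. Transferases of the alpha, mu, pi and other classes attach it to electrophilic drugs and lipid peroxidation products, while glutathione peroxidases, peroxiredoxins and the thioredoxin system use thiols to reduce peroxides. Many of these genes are induced by the transcription factor Nrf2, encoded by Nfe2l2, which Keap1 holds back in unstressed cells and which binds antioxidant response elements. Alpha and mu class transferases are abundant in hepatocytes and are induced together by many foreign compounds.

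Promoter windows are shown for 5 members to set sequence beside the strain values. Nqo2, Gss and Gsta3 have more than 1 probe set and did not overlap between the strains in any of them. Gclm and Txnrd1 are textbook Nrf2 targets whose strains overlapped. Each window runs from 250 bases before to 50 after an annotated start, 5′ to 3′, from RefSeq on GRCm38.p6, in the C57BL/6J reference sequence. Capitals mark matches to the antioxidant response element core, TGACNNNGC, on either strand. The windows are those of Gsta3 (chr1:21240335-21240634, plus strand), Nqo2 (chr13:33964409-33964708, plus strand), Gss (chr2:155592761-155593060, minus strand), Gclm (chr3:122245307-122245606, plus strand) and Txnrd1 (chr10:82858956-82859255, plus strand).
Gsta3: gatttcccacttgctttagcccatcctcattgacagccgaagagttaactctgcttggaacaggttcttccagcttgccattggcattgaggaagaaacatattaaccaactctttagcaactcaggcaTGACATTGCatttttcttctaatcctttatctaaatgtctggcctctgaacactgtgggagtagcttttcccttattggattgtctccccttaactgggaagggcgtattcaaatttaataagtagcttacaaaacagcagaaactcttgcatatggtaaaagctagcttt
Nqo2: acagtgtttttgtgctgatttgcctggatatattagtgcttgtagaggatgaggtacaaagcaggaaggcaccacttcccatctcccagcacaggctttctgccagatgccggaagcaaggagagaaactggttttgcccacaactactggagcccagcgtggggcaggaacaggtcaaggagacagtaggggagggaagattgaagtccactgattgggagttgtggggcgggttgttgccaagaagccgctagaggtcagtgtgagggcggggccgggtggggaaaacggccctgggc
Gss: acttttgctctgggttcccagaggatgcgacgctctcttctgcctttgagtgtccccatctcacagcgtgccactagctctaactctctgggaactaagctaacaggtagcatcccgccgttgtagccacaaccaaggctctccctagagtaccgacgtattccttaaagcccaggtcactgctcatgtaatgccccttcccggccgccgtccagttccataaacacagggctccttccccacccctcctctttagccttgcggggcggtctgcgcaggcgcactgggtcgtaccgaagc
Gclm: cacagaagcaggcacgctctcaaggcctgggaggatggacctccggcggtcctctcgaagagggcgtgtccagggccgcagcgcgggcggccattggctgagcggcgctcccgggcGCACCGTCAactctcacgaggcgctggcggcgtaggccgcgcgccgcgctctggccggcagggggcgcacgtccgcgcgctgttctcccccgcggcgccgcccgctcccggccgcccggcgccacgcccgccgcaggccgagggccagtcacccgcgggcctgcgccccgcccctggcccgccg
Txnrd1: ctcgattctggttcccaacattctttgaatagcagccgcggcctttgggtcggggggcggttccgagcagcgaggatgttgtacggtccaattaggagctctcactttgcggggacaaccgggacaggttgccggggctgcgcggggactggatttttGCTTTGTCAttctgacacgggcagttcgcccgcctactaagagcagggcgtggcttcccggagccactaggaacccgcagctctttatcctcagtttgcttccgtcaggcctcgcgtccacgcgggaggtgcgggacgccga
Gsta3, Gclm and Txnrd1 each held 1 match, and these letters were not in the windows shown for Nqo2 and Gss. A window was found for 41 of the 47 members, 59 windows in all, and 13 of those (22.0%) held the core, against 12.4% of 32851 windows of all genes. The 13 windows belong to 11 members, of which 9 are measured and Ggt1 and Prdx1 are not. Windows of the same gene are not independent of each other. The shorter CCAAT box, searched on both strands, was in 33 member windows (55.9%) and in 37.4% of all windows. A match is a description of letters in the reference and not a site shown to be used in these livers.

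No member passed the test of the strain difference. Under limma with Benjamini-Hochberg adjustment over all genes 0 of 43 members had an adjusted p under 0.05, against 0.0715% of all genes, and the lowest adjusted p was 0.211, that of Nqo2. At an unadjusted p under 0.05, 7 members were higher in B6.C3H-6T (6.36% of all genes) and 1 was lower (5.82% of all genes). Both directions together made 8 of 43 members (18.6%), against 12.2% of all genes. The strains did not overlap at 5 members, Nqo2, Gss, Gsta3, Gstz1 and Keap1, or 11.6%, against 17.8% of all genes. The median difference, B6.C3H-6T minus C57BL/6J, was 0.06 over the 43 members and 0.02 over all genes on the log2 scale, and 32 members (74.4%) had a positive difference, against 56.1% of all genes.

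The count of 7 higher members depended on single arrays. Leaving out B6.C3H-6T replicate 2 gave 1, and so did leaving out C57BL/6J replicate 2 or 3, while leaving out C57BL/6J replicate 1 gave 12. The 1 lower member became 4 when B6.C3H-6T replicate 1 or C57BL/6J replicate 3 was left out. Nqo2 and Gss were the 2 members with an unadjusted p under 0.05 without each of the 6 arrays in turn. The plot of all member differences shows the width of each interval.

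**Figure D1:**
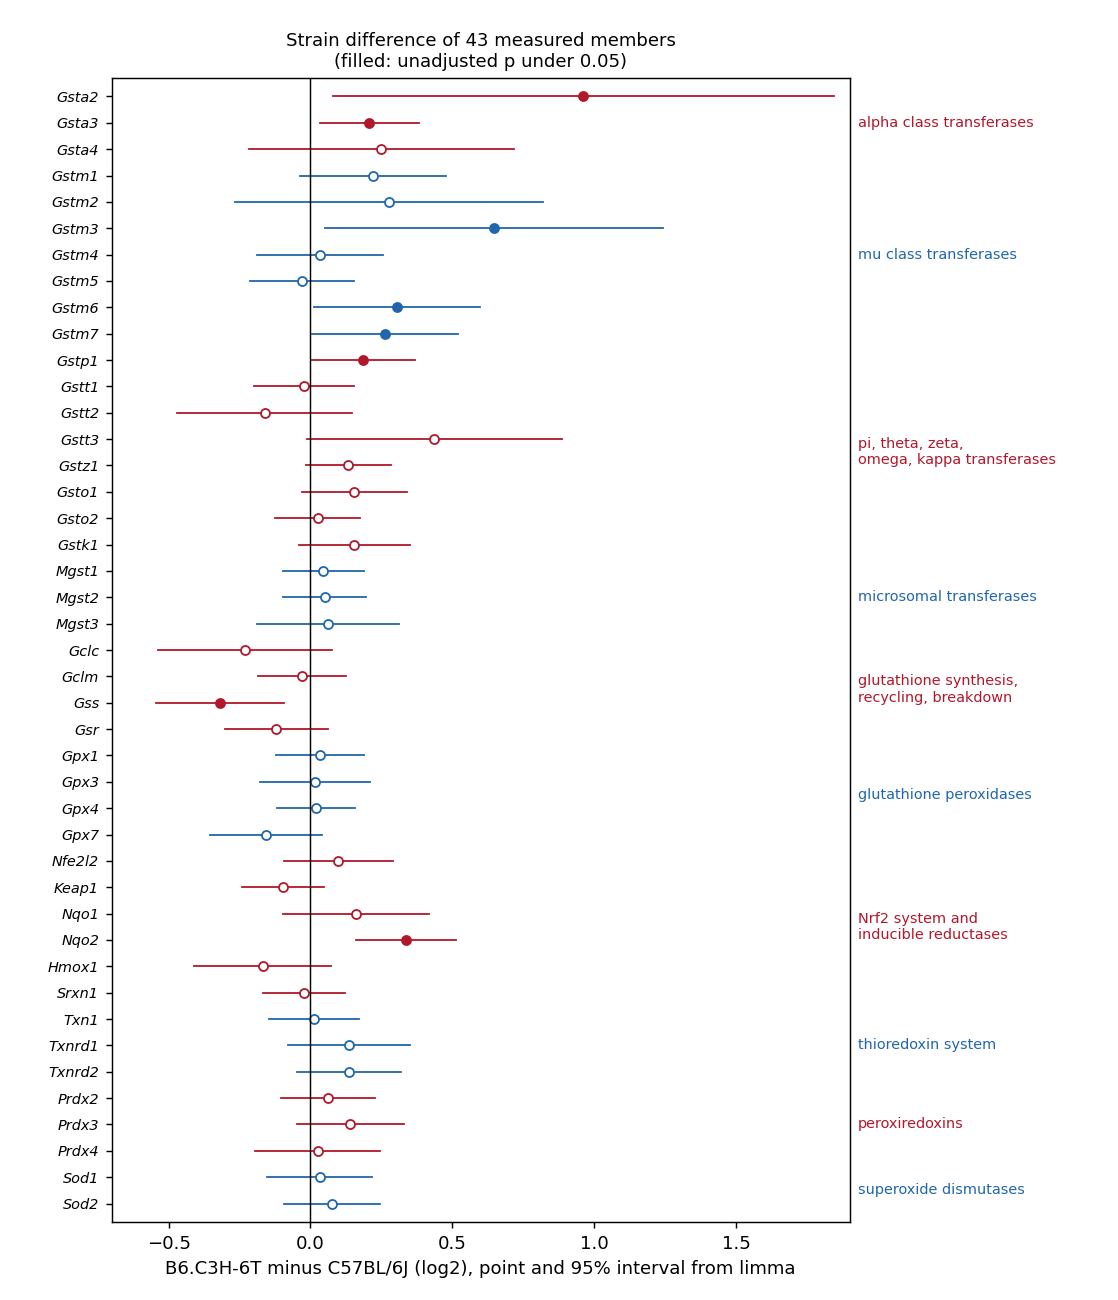
Strain difference of the 43 measured members (B6.C3H-6T minus C57BL/6J, log2, x axis) with the 95% interval from limma, 3 mice per strain, one gene per row and colours alternating between enzyme classes. Filled points have an unadjusted p under 0.05, and 18 of the 21 transferases and none of the 4 genes of glutathione synthesis and recycling lie right of 0, where 56.1% of all genes (not drawn) would lie.

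Nqo2, which encodes a quinone reductase that uses dihydronicotinamide riboside in place of NADPH, had the smallest p of all members. It had log2 values of 10.35, 10.43 and 10.25 in B6.C3H-6T livers, against 10.11, 10.01 and 9.91 in C57BL/6J livers. The lowest B6.C3H-6T array lay above the highest C57BL/6J array, and means were 10.35 ± 0.09 in B6.C3H-6T and 10.01 ± 0.10 in C57BL/6J (SD, n = 3 each). The difference was 0.34 ± 0.08 (SE), a 1.26-fold signal with a 95% interval of 0.16 to 0.51 on the log2 scale (unadjusted p = 0.00188, limma adjusted p = 0.211). Its second probe set had 10.11, 10.24 and 10.06 in B6.C3H-6T livers, against 9.92, 9.82 and 9.73 in C57BL/6J livers. The dimmest had 8.37, 8.65 and 8.53 in B6.C3H-6T livers, against 8.31, 7.80 and 7.80 in C57BL/6J livers. Neither overlapped between the strains, with differences of 0.31 ± 0.08 and 0.54 ± 0.14. Leaving out 1 array gave differences of the brightest probe set of 0.29 to 0.39. Nqo2 lies on chromosome 13, outside the chromosome that carries the C3H segment.

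Nqo1, the related NADPH-dependent quinone reductase and a standard readout of Nrf2 activity, had log2 values of 7.09, 7.27 and 7.05 in B6.C3H-6T livers, against 7.21, 6.98 and 6.75 in C57BL/6J livers. The strains overlapped at Nqo1, and the difference was 0.16 ± 0.11 (adjusted p = 0.602). None of the other genes of the Nrf2 system had an unadjusted p under 0.05. Nfe2l2 had log2 values of 10.07, 10.31 and 10.06 in B6.C3H-6T livers, against 10.08, 10.12 and 9.95 in C57BL/6J livers, a difference of 0.10 ± 0.09. Keap1 had log2 values of 9.02, 9.04 and 9.03 in B6.C3H-6T livers, against 9.05, 9.15 and 9.18 in C57BL/6J livers, without overlap but with a difference of -0.10 ± 0.06 (adjusted p = 0.571). Srxn1, whose product sulfiredoxin repairs over-oxidised peroxiredoxins, had the smallest difference of this group, with log2 values of 8.95, 8.87 and 8.91 in B6.C3H-6T livers, against 8.87, 8.95 and 8.97 in C57BL/6J livers. Hmox1, the haem-degrading oxygenase that macrophages also express, had log2 values of 7.93, 7.89 and 7.96 in B6.C3H-6T livers, against 8.10, 8.32 and 7.86 in C57BL/6J livers. The 3 B6.C3H-6T values of Hmox1 lay between the lowest and the middle C57BL/6J value, and the difference was -0.17 ± 0.11 (adjusted p = 0.554). Of the 8 Kupffer cell and macrophage markers, 7 had an unadjusted p under 0.05, all lower in B6.C3H-6T, against 5.82% of all genes, and their part in the Hmox1 values was not tested. That count of 7 was 3 when B6.C3H-6T replicate 2 was left out and 2 when C57BL/6J replicate 2 was, and 3 in the fit without moderated variances.

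**Figure D2:**
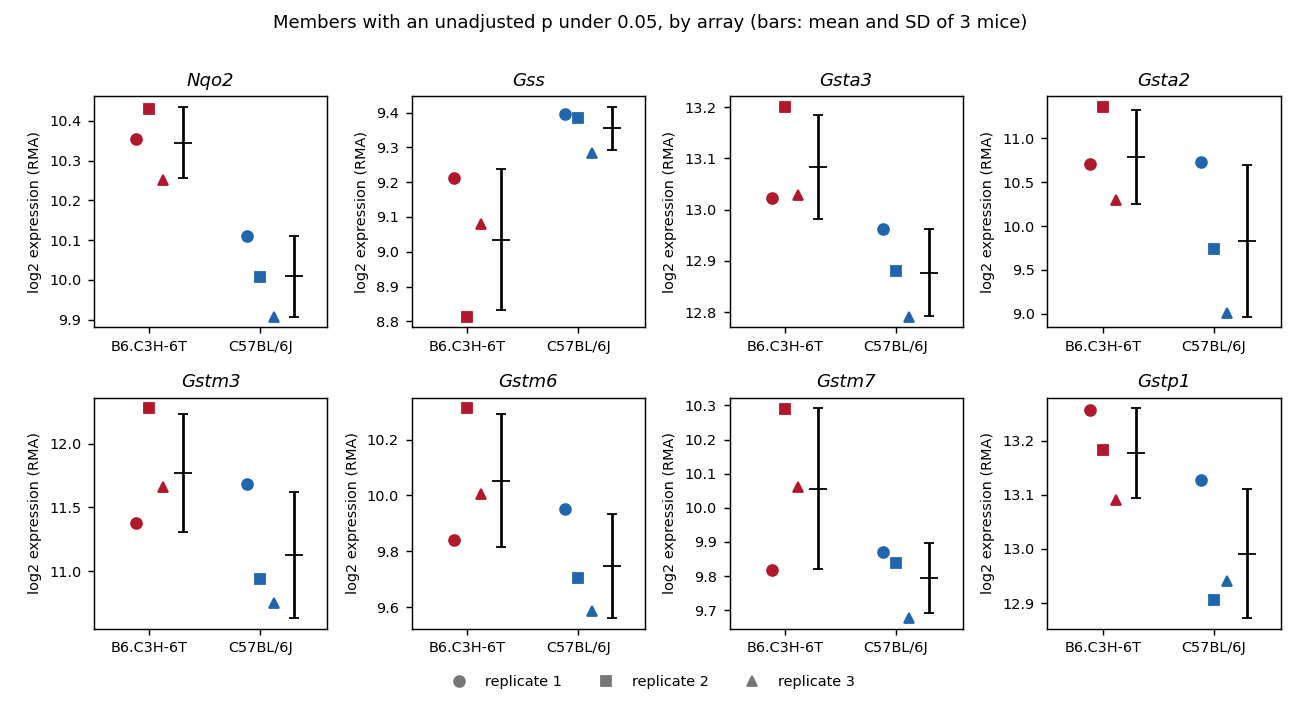
Log2 expression (RMA, y axis, a separate scale for each gene that does not start at 0) of the 8 members with an unadjusted p under 0.05, with B6.C3H-6T left of C57BL/6J, 1 symbol per mouse and the mean with its SD beside them. Nqo2, Gss and Gsta3 do not overlap between the strains, and the other 5 genes do.

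The alpha and mu class transferases, the main conjugating enzymes of hepatocytes, had a positive difference in 9 of 10 members, against 56.1% of all genes, with a median of 0.26. At an unadjusted p under 0.05 there were 5 of the 10, Gsta2, Gsta3, Gstm3, Gstm6 and Gstm7, all higher in B6.C3H-6T, against 6.36% of all genes in that direction, and none by adjusted p. Leaving out B6.C3H-6T replicate 2, or C57BL/6J replicate 2 or 3, gave 0 of 10, and leaving out B6.C3H-6T replicate 3 gave 2. The count was 3 when each array was centred on its median and 0 in a fit without moderated variances. Without _x_at, _s_at and _a_at probe sets it was 2 of the 8 genes left, and Gsta2 and Gstm6, each with a single _a_at probe set, dropped out. The part of the Tat and Cps1 signals in these differences was not tested.

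Gsta3, an alpha class enzyme with high activity toward aflatoxin epoxide in mice, had log2 values of 13.02, 13.20 and 13.03 in B6.C3H-6T livers, against 12.96, 12.88 and 12.79 in C57BL/6J livers. Its values did not overlap between the strains, with a difference of 0.21 ± 0.08 (95% interval 0.03 to 0.38, adjusted p = 0.355). Leaving out 1 array gave differences of 0.15 to 0.25, and the unadjusted p stayed under 0.05 in 3 of the 6 fits. It was not under 0.05 with quantile normalization or without moderated variances. The second probe set gave 10.49, 10.77 and 10.48 in B6.C3H-6T livers, against 10.35, 10.28 and 10.15 in C57BL/6J livers, again without overlap, and a difference of 0.32 ± 0.09. Gsta2 had the widest difference of all members, 0.96 ± 0.39, or 1.95-fold, from log2 values of 10.70, 11.36 and 10.30 in B6.C3H-6T livers, against 10.73, 9.74 and 9.01 in C57BL/6J livers. C57BL/6J replicate 1 reached the B6.C3H-6T range while C57BL/6J replicate 3 lay far below it, and leaving out 1 array gave differences of 0.55 to 1.41 (95% interval 0.08 to 1.84 with all arrays). Gsta2 and Gsta1 are near-identical in sequence, and signal from the one can reach a probe set named for the other. Gsta4, the alpha enzyme that conjugates the lipid aldehyde 4-hydroxynonenal, had log2 values of 10.56, 10.43 and 10.06 in B6.C3H-6T livers, against 10.59, 10.02 and 9.70 in C57BL/6J livers, and its difference of 0.25 ± 0.21 lay within the spread of both strains.

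The mu class genes Gstm1 to Gstm7 lie next to each other on chromosome 3, in the order Gstm5, Gstm7, Gstm6, Gstm3, Gstm2, Gstm1 and Gstm4, with no other coding gene between them in the RefSeq annotation. They are close paralogs, and the 3′ probes of one may read another. Gstm3 had the widest difference of the class, with log2 values of 11.37, 12.28 and 11.66 in B6.C3H-6T livers, against 11.68, 10.94 and 10.75 in C57BL/6J livers. B6.C3H-6T replicate 2 and C57BL/6J replicate 1 stood high in their strains, the strains overlapped, and the difference was 0.65 ± 0.26, or 1.57-fold (adjusted p = 0.385). Its second probe set differed by 0.58 ± 0.27. Gstm6 had log2 values of 9.84, 10.31 and 10.01 in B6.C3H-6T livers, against 9.95, 9.70 and 9.58 in C57BL/6J livers, a difference of 0.31 ± 0.13. Gstm7 had log2 values of 9.82, 10.29 and 10.06 in B6.C3H-6T livers, against 9.87, 9.84 and 9.68 in C57BL/6J livers, where C57BL/6J replicates 1 and 2 lay just above the lowest B6.C3H-6T array, and a difference of 0.26 ± 0.11. The dimmer probe set of Gstm7 did not overlap between the strains and differed by 0.22 ± 0.08. Gstm1, the mu enzyme best known in mouse liver, had log2 values of 13.50, 13.64 and 13.37 in B6.C3H-6T livers, against 13.50, 13.29 and 13.06 in C57BL/6J livers. C57BL/6J replicate 1 equalled the middle of the B6.C3H-6T values, and all 4 probe sets of Gstm1 had positive differences, from 0.17 to 0.34. Gstm2 differed by 0.28 ± 0.24, Gstm4 by 0.03 ± 0.10 and Gstm5 by -0.03 ± 0.08. Gstm5, the one mu class gene with a negative difference, had log2 values of 8.95, 9.07 and 8.90 in B6.C3H-6T livers, against 9.11, 8.88 and 9.02 in C57BL/6J livers, and the order of its arrays was mixed. Gstm4 and Gstm5 changed sign when single arrays were left out.

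The order of the arrays was similar across the 10 genes. C57BL/6J replicate 1 was the highest of its strain at 10 of 10 of them, against 37.7% of all genes, and C57BL/6J replicate 3 was the lowest at 9 of 10, against 42.2% of all genes. B6.C3H-6T replicate 2 was the highest of its strain at 9 of 10, against 30.8% of all genes. These genes share paralogous sequence and, within each array, one liver, so the 10 are not independent of each other.

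**Figure D3:**
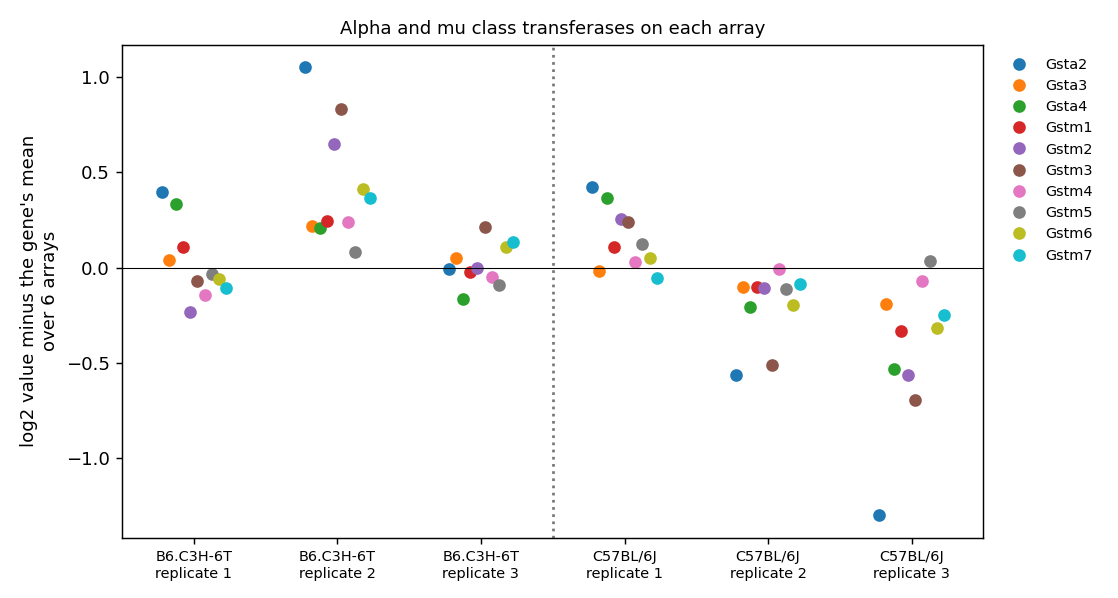
Log2 value of each alpha and mu class transferase minus that gene's mean over the 6 arrays (y axis), by array (x axis, B6.C3H-6T left of C57BL/6J), 1 colour per gene and no joining lines. C57BL/6J replicate 1 is the highest of its strain for 10 of 10 genes and C57BL/6J replicate 3 the lowest for 9, and B6.C3H-6T replicate 2 is the highest of its strain for 9.

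Among the other cytosolic classes, 6 of 8 members had a positive difference, against 56.1% of all genes. Gstp1, the pi class enzyme, had log2 values of 13.26, 13.18 and 13.09 in B6.C3H-6T livers, against 13.13, 12.91 and 12.94 in C57BL/6J livers. C57BL/6J replicate 1 lay inside the B6.C3H-6T range, and the difference was 0.19 ± 0.08 (adjusted p = 0.403). Gstt3, of the theta class, had log2 values of 10.78, 11.39 and 10.81 in B6.C3H-6T livers, against 10.91, 10.57 and 10.19 in C57BL/6J livers, a difference of 0.44 ± 0.20 in which B6.C3H-6T replicate 2 stood highest and C57BL/6J replicate 3 lowest. Of its neighbours on chromosome 10, Gstt1 had log2 values of 12.26, 12.19 and 12.13 in B6.C3H-6T livers, against 12.22, 12.33 and 12.10 in C57BL/6J livers, with the strains mixed. Gstt2 differed by -0.16 ± 0.14, and whether the genes differ from each other in this was not tested. Gstz1, the zeta enzyme that also acts in tyrosine breakdown as maleylacetoacetate isomerase, did not overlap between the strains but differed by only 0.13 ± 0.07. Gsto1 of the omega class differed by 0.15 ± 0.08 and the mitochondrial and peroxisomal kappa enzyme Gstk1, on chromosome 6, by 0.15 ± 0.09 (adjusted p = 0.511). Gsto2 was dim on all arrays, with 4.07, 4.04 and 3.93 in B6.C3H-6T livers, against 4.00, 4.02 and 3.95 in C57BL/6J livers, where a difference may not be resolved.

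The microsomal transferases, membrane proteins unrelated in sequence to the cytosolic ones, had small differences. Mgst1, on chromosome 6, had log2 values of 13.71, 13.74 and 13.69 in B6.C3H-6T livers, against 13.63, 13.73 and 13.65 in C57BL/6J livers. These 6 values lay within a narrow band, the difference was 0.05 ± 0.06 and its 95% interval was -0.10 to 0.19. Mgst3 had log2 values of 9.22, 9.52 and 9.21 in B6.C3H-6T livers, against 9.45, 9.14 and 9.17 in C57BL/6J livers, and Mgst2 was dim on all arrays, with a difference of 0.05 ± 0.07.

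Genes that make and recycle glutathione had a negative difference at 4 of 4 measured members, with a median of -0.17, while 56.1% of all genes had a positive one. Gss, which encodes glutathione synthetase, the enzyme of the last step, had log2 values of 9.21, 8.81 and 9.08 in B6.C3H-6T livers, against 9.40, 9.39 and 9.28 in C57BL/6J livers. Every B6.C3H-6T array lay below every C57BL/6J array, with B6.C3H-6T replicate 2 lowest. Means were 9.03 ± 0.20 in B6.C3H-6T and 9.36 ± 0.06 in C57BL/6J (SD, n = 3 each), and the difference was -0.32 ± 0.10, a ratio of 0.801 (95% interval -0.55 to -0.09 on the log2 scale, unadjusted p = 0.0105, limma adjusted p = 0.294). In the second probe set the highest B6.C3H-6T array, at 8.14, lay below the lowest C57BL/6J array, at 8.22, and the difference was -0.25 ± 0.07. Leaving out 1 array gave differences of the brightest probe set of -0.41 to -0.21.

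Gclc, the catalytic subunit of glutamate-cysteine ligase and the rate-limiting step, had log2 values of 11.69, 11.26 and 11.28 in B6.C3H-6T livers, against 11.78, 11.74 and 11.40 in C57BL/6J livers. B6.C3H-6T replicate 1 lay with the C57BL/6J arrays and the difference was -0.23 ± 0.14 (adjusted p = 0.530). Gclm, the modifier subunit of the same ligase and an Nrf2 target, had log2 values of 10.63, 10.64 and 10.68 in B6.C3H-6T livers, against 10.77, 10.65 and 10.60 in C57BL/6J livers. Its strains overlapped fully, with a difference of -0.03 ± 0.07. Gsr, the reductase that returns oxidised glutathione to its thiol form, differed by -0.12 ± 0.08. Of these 4 genes only Gss had an unadjusted p under 0.05, against 5.82% of all genes lower in B6.C3H-6T at that p. Leaving out B6.C3H-6T replicate 1 gave 2 and leaving out C57BL/6J replicate 3 gave 3, all lower in B6.C3H-6T. The share of all genes in those fits is not given here.

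Glutathione peroxidases, which reduce peroxides with glutathione, showed small differences. Gpx1, the main cytosolic peroxidase of liver, had log2 values of 13.91, 13.79 and 13.79 in B6.C3H-6T livers, against 13.79, 13.87 and 13.73 in C57BL/6J livers. Gpx3, the secreted plasma form, had log2 values of 7.66, 7.81 and 7.78 in B6.C3H-6T livers, against 7.57, 7.84 and 7.79 in C57BL/6J livers. Both genes overlapped between the strains, with 95% intervals of -0.12 to 0.19 and -0.18 to 0.21. Gpx4, which reduces lipid hydroperoxides in membranes, differed by 0.02 ± 0.06. Gpx7, an enzyme of the endoplasmic reticulum, had log2 values of 6.34, 6.04 and 6.15 in B6.C3H-6T livers, against 6.41, 6.25 and 6.34 in C57BL/6J livers and the widest difference of the 4, -0.16 ± 0.09 (adjusted p = 0.507).

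In the thioredoxin system, Txn1 had log2 values of 12.31, 12.25 and 12.27 in B6.C3H-6T livers, against 12.28, 12.35 and 12.16 in C57BL/6J livers, a difference of 0.01 ± 0.07 with its interval at -0.15 to 0.17. Txnrd1, the cytosolic reductase, had log2 values of 10.38, 10.56 and 10.22 in B6.C3H-6T livers, against 10.23, 10.35 and 10.16 in C57BL/6J livers, and Txnrd2, the mitochondrial one, differed by 0.14 ± 0.08. All 3 overlapped between the strains. Prdx4, the peroxiredoxin of the secretory pathway, had log2 values of 11.70, 11.40 and 11.68 in B6.C3H-6T livers, against 11.45, 11.69 and 11.56 in C57BL/6J livers, in mixed order. Prdx3, the mitochondrial one, had log2 values of 10.83, 11.07 and 10.80 in B6.C3H-6T livers, against 10.73, 10.80 and 10.75 in C57BL/6J livers. B6.C3H-6T replicate 2 stood highest at Prdx3, and the difference was 0.14 ± 0.08. Prdx2, a cytosolic peroxiredoxin, differed by 0.06 ± 0.07. Sod1, the cytosolic superoxide dismutase, had log2 values of 13.07, 12.92 and 12.87 in B6.C3H-6T livers, against 12.98, 12.99 and 12.79 in C57BL/6J livers, and Sod2 of the mitochondrial matrix had log2 values of 11.64, 11.79 and 11.60 in B6.C3H-6T livers, against 11.62, 11.67 and 11.52 in C57BL/6J livers. Neither dismutase separated the strains, with differences of 0.03 ± 0.08 and 0.08 ± 0.08.

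Of the 38 other probe sets, 27 had the same sign as the brightest probe set of their gene and 11 the opposite sign. An unadjusted p under 0.05 was found for 8 of the 38, beside 12.2% of all genes by their brightest probe set. The 5 members with an unadjusted p under 0.05 and more than 1 probe set had 6 others, all 6 of the same sign and 5 of them at an unadjusted p under 0.05. These 6 read the same livers as the brightest probe sets, and their members were picked by p, so they are not independent of them. The opposite signs fell on Sod1 (4 of 4 others), Prdx4 (3 of 3), Mgst1, Srxn1, Txnrd1 and Txnrd2 (1 each). One dim probe set of Sod1 differed by -0.24 ± 0.10, while the dimmest of Sod2 differed by 0.23 ± 0.07 without overlap. The difference of Gstm1 was at an unadjusted p under 0.05 only in its dimmest probe set.

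**Figure D4:**
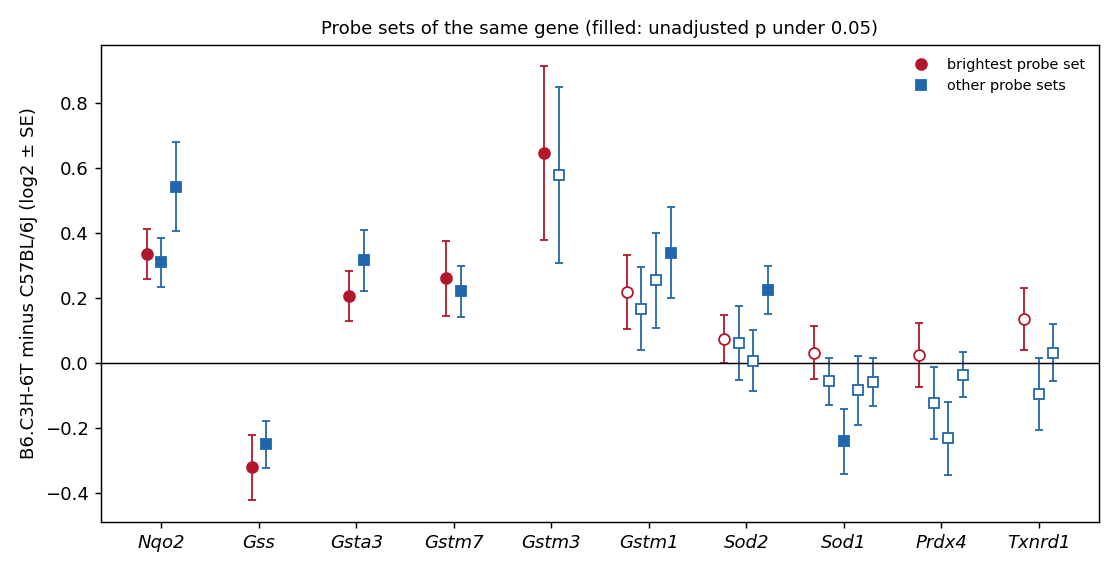
Strain difference (B6.C3H-6T minus C57BL/6J, log2, y axis) of each probe set of 10 members, with its SE from the fit over all probe sets, circles for the brightest probe set and squares for the others. Filled symbols have an unadjusted p under 0.05. The probe sets of Nqo2, Gss, Gsta3, Gstm7, Gstm3, Gstm1 and Sod2 lie on one side of 0. Those of Sod1, Prdx4 and Txnrd1 lie on both.

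The promoter match to the antioxidant response element core was set beside these differences. Measured members with a match in any window numbered 9, with a median difference of 0.05 and a range of -0.03 to 0.26, and 2 of them, Gsta3 and Gstm7, had an unadjusted p under 0.05, against 12.2% of all genes. Measured members with a window and no match numbered 29, with a median of 0.08 and a range of -0.32 to 0.96, and 6 of them had an unadjusted p under 0.05, beside the 12.2% of all genes. Gclm and Srxn1 held a match and lay near 0, and Nqo2, with the smallest p, had none in its windows. Sequence outside the windows was not searched, so a member without a match may still have an element elsewhere. Gsta4, Gstt2, Gclc, Gsr and Hmox1 had no window and are in neither group.

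Neighbouring pathways were read from lists beside the members. Of 10 genes of methionine and cysteine metabolism, 5 were at an unadjusted p under 0.05 with a positive difference and 1 with a negative one, against 6.36% and 5.82% of all genes, and none passed by adjusted p. Cth, the cystathionine lyase that yields cysteine, had log2 values of 12.60, 12.79 and 12.50 in B6.C3H-6T livers, against 12.25, 12.04 and 12.21 in C57BL/6J livers, a difference of 0.46 ± 0.09 without overlap (adjusted p = 0.177). Gnmt differed by 0.40 ± 0.08, Got1 by 0.74 ± 0.17 and Ahcy by 0.25 ± 0.08, all 3 without overlap. In this list 5 of 10 genes (50%) did not overlap between the strains, against 17.8% of all genes. Mat1a, which makes S-adenosylmethionine in liver, differed by 0.17 ± 0.07. Csad, which diverts cysteine toward taurine, was the one with a negative difference, -0.83 ± 0.29. Mat1a and Csad were named after their values were seen. The count of negative genes was 0 in the fit without moderated variances, and 0 without B6.C3H-6T replicate 2 or C57BL/6J replicate 3.

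Of 11 genes of NADPH supply, 10 had a positive difference, against 56.1% of all genes. An unadjusted p under 0.05 was found for 3 of them, against 12.2% of all genes, namely Aldh1l1 (0.45 ± 0.10), Mthfd1 (0.31 ± 0.08) and Me1 (0.52 ± 0.19). Pgd had log2 values of 9.32, 10.37 and 9.34 in B6.C3H-6T livers, against 9.36, 9.15 and 9.10 in C57BL/6J livers, a difference of 0.47 ± 0.24 in which B6.C3H-6T replicate 2 stood far above the rest and which became 0.13 without it. The count of 3 was 6 when B6.C3H-6T replicate 3 was left out, and 2 without replicate 2 of either strain or without C57BL/6J replicate 3. Of 22 other genes of glutathione metabolism 5 had an unadjusted p under 0.05, against 12.2% of all genes. Chac1, which degrades glutathione, had log2 values of 7.99, 8.44 and 7.81 in B6.C3H-6T livers, against 7.65, 7.59 and 7.53 in C57BL/6J livers, a difference of 0.49 ± 0.14. Oplah and Ggct, of the gamma-glutamyl cycle, differed by -0.37 ± 0.10 and -0.32 ± 0.10, each lower in every B6.C3H-6T array. They were among 5 of the 22 genes (22.7%) without overlap between the strains, against 17.8% of all genes. The rest of those, Chac1 and Gpx5 among them, were higher in B6.C3H-6T. Gpx5 differed by 0.16 ± 0.06 and Ggt6, named after its value was seen, by 0.41 ± 0.16. Of the 5 with an unadjusted p under 0.05, 3 were positive, and leaving out replicate 2 of either strain gave 1 positive gene. The fit without moderated variances gave 1 positive and 1 negative gene.

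Of 31 other Nrf2 partners and inducible genes, 5 had a negative difference and 1 a positive one at an unadjusted p under 0.05, against 5.82% and 6.36% of all genes, and the median was -0.04. The fit without moderated variances gave 2 negative and 0 positive genes. Slc6a9, a glycine transporter, had log2 values of 9.17, 9.12 and 9.16 in B6.C3H-6T livers, against 9.51, 9.43 and 9.43 in C57BL/6J livers, a difference of -0.31 ± 0.06. The repressor gene Bach2 differed by -0.91 ± 0.21, the aldehyde oxidase gene Aox1 by -0.42 ± 0.12 and the efflux pump gene Abcc3 by -0.21 ± 0.09. Akr1b8 (-0.19 ± 0.08) and Ugdh (0.29 ± 0.12, the positive one) were named after their values were seen. Bach2, Slc6a9, Aox1 and Akr1b8 were among 7 of the 31 genes (22.6%) without overlap between the strains, against 17.8% of all genes. The rest of those 7 were higher in B6.C3H-6T. The count of 5 was 3 when B6.C3H-6T replicate 2 or C57BL/6J replicate 1 was left out, and the 1 positive gene became 0 to 2 over the 6 arrays left out in turn. Of 27 other thiol and peroxide enzymes 2 (7.41%) had an unadjusted p under 0.05, a smaller share than the 12.2% of all genes. They were the sestrin gene Sesn3 (0.27 ± 0.07) and Txnl1 (0.20 ± 0.08). Txn2 (0.14 ± 0.06) and Glrx3 (0.18 ± 0.09) followed. The count of positive genes, 2 with all arrays, was 4 without B6.C3H-6T replicate 3. It was 1 without B6.C3H-6T replicate 2 or C57BL/6J replicate 3. The count of negative genes, 0 with all arrays, was 1 without B6.C3H-6T replicate 1 or 2 or C57BL/6J replicate 1. With quantile normalization there were 2 in each direction. No gene of these 5 lists passed by adjusted p.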

How the data were processed

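Liver RNA of 6 mice, 1 per array, was measured on Affymetrix expression arrays. Per the labels' protocols, RNA was copied from an oligo(dT)-T7 primer, which favours the 3′ end of a transcript, and images were quantified with GCOS version 1.2. Each probe set has a log2 value that the authors deposited, and the submitters' processing notes name RMA and affy. Their versions, a genome build and scan dates are not given in the sources used here.

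Of 45101 probe sets 64 controls were left out. A single gene was paired with 34945, several with 932 and none with 9160, with symbols updated through gene identifiers to RefSeq of GRCm38.p6. The brightest probe set over all 6 arrays represented each of 18193 genes, with no filter. The strain term was fitted on all genes by lmFit and eBayes of limma 3.58.1, under R 4.3.3 and with no covariate, and p-values were adjusted by Benjamini-Hochberg with a threshold of 0.05. Intervals are 95% intervals of the moderated statistic. Levels of different probe sets are not comparable, and the number of arrays limits the precision. The fit was tested on simulated data in which genes were drawn independently of each other. It recovered 66.7% of genes changed by 0.5 log2 and 94.5% of those changed by 1, with 4.88% of all calls false. Each run changed 200 genes, while 13 genes were called in the data, and the rates average over genes of all spreads. They do not give the share of changed members that would be found here. Smaller changes were not simulated.

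Per-array values are given by rule for members with an unadjusted p under 0.05 and for the brightest, most and least different member of each class, and up to 4 genes of smallest p are named from each other pathway list. Values of Gsta4, Gsto2, Nqo1, Nfe2l2, Keap1 and Hmox1 were added after they were seen. Members and lists were chosen with earlier results of these data known. Alternatives covered the adjustment, a filter on dim genes, 2 normalizations, 2 other variance models, 2 probe set choices and each array left out. Replicate numbers follow sample order and only name a mouse.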

Additional observations from a re-analysis of the deposited data

How the results depend on the processing

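No member passed by adjusted p under any of the 8 alternatives or without any of the 6 arrays, where the lowest adjusted p of a member ran from 0.160 to 0.523. The number of genes called among all genes was 6 to 18 without 1 array, against 13, and 0 in the fit without moderated variances. The 7 members higher at an unadjusted p under 0.05 became 1 to 12 without 1 array, 4 with arrays centred on their median, 3 without _x_at, _s_at and _a_at probe sets, where 35 members remained, and 1 in the fit without moderated variances. The 1 lower member became 1 to 4 without 1 array and 0 without moderated variances. The 5 members without overlap became 6 to 17 without 1 array, where fewer arrays make overlap rarer, and 3 with quantile normalization. The cause of the other shifts was not tested. Of 43 members 29 kept the sign of their difference throughout, and none of the 8 with an unadjusted p under 0.05 changed it. Without 1 array the differences that changed sign ran over Gstm4 -0.078 to 0.11, Gstm5 -0.094 to 0.025, Gstt1 -0.082 to 0.035, Gsto2 -0.0018 to 0.066, Mgst3 -0.040 to 0.16, Gclm -0.067 to 0.019, Gpx1 -0.0051 to 0.071, Gpx3 -0.066 to 0.068, Gpx4 -0.0018 to 0.031, Srxn1 -0.052 to 0.00041, Txn1 -0.038 to 0.055, Prdx4 -0.035 to 0.12 and Sod1 -0.032 to 0.072. Centring gave -0.0089 for Gpx3, -0.0072 for Gpx4, -0.013 for Txn1 and -0.00045 for Prdx4. Quantile normalization gave -0.034 for Mgst1, -0.058 for Gpx1, -0.021 for Gpx4, 0.010 for Srxn1, -6.5e-05 for Txn1, -0.0038 for Prdx4 and -0.028 for Sod1. The mean of all probe sets gave -0.029 for Mgst1, 0.010 for Srxn1, -0.091 for Prdx4 and -0.081 for Sod1, and the probe sets left without the named suffixes gave -0.10 for Mgst1. No paired analysis was possible because the labels give the mice no shared replicate numbers. Signal near the floor of the scale limits what Gsto2 and Mgst2 can show.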
